A study of Sus scrofa with 60 samples.

Results

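Claudins are membrane-spanning proteins that join neighboring epithelial cells at the tight junction. Some of them seal the gap between cells, and others form pores that let ions or water through. In the liver, tight junctions line the bile canaliculi between hepatocytes and the bile ducts formed by cholangiocytes, and so keep bile apart from blood. Bile duct ligation (BDL) blocks the outflow of bile and causes obstructive cholestasis.

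The 9 claudin genes described here are CLDN1, CLDN2, CLDN3, CLDN4, CLDN6, CLDN7, CLDN10, CLDN12, and CLDN14. They were chosen by name from the 22 claudin genes in a table of liver mRNA counts with 30335 named genes. All 9 passed a filter on low counts that left 16210 genes to be tested. Of the other 13 claudin genes, 5 passed it.

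Liver was taken at day 14 from 60 newborn pigs of both sexes that were delivered preterm by cesarean section. Their sows were of mixed Landrace and Hampshire breeds. Surgery was either BDL, with the cystic and common bile ducts tied, or a sham operation, and all pigs had a catheter in a jugular vein. The diet was enteral formula (ENT), parenteral nutrition (PN) with a soy lipid emulsion (SLE, Intralipid), or PN with a mixed lipid emulsion (MLE, SMOFlipid). ENT pigs also began on PN and were moved over step by step, with full enteral feeds from day 7. The groups were ENT-sham (n = 12), ENT-BDL (n = 10), SLE-sham (n = 10), SLE-BDL (n = 11), MLE-sham (n = 9), and MLE-BDL (n = 8). Each library held 14469788 to 21374161 counted reads. Levels are given as CPM, counts scaled to the size of each library, and levels of different genes are compared only per transcript length (RPKM).

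Hepatocyte markers summed to 65312 CPM or more in every library, and the gut and pancreas genes FABP2, SI, and PNLIP had a median of 0. The other genes of the gut and pancreas list, VIL1, CPA1, LCT, and MUC5AC, had medians of 32.7, 1.84, 0.839, and 0.48 CPM. ENT-sham replicate 2 and ENT-BDL replicate 1 stood apart from the other libraries. Their counts differed from each other by a chi-square per degree of freedom of 1.87, and the next closest of the 1770 pairs of libraries by 15. ENT-sham replicate 2 had the highest CLDN6, CLDN7, and CLDN10 levels of its group, so results that use ENT-sham pigs are given with all pigs and, where it matters, without both of these matching libraries. Whether they come from 1 animal, or a library carries the wrong label, cannot be told apart from the files, so every ENT-sham value over all pigs rests on replicate 2 being a sham pig. The labels of SLE-sham replicates 9 and 10 share a pig identifier, so SLE-sham may hold 9 animals and not 10. With either of them left out, CLDN6 and CLDN10 still passed between SLE-BDL and SLE-sham, with log2 fold changes of 1.82 or more and 1.58 or more.

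Each pig identifier also holds a 3-digit number, whose meaning is not given in the sources used here. With group means removed, 177 pairs of pigs across groups that share this number had a mean correlation of 0.133 over genes, and 1318 pairs that do not had -0.0178. The MLE pigs carry only 4 of the 8 numbers, which 5 of 10 SLE-sham pigs, 3 of 11 SLE-BDL pigs, 3 of 10 ENT-BDL pigs, and 2 of 12 ENT-sham pigs also carry, so the number and the MLE diet overlap in part. Where the number as a block ends or makes a call, or moves a passed fold change of a member by a factor of about 1.5 or more, that value is given beside the result.

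The members lie on 6 chromosomes of Sscrofa11.1. CLDN3 (chr3:11019073-11020102, minus strand) and CLDN4 (chr3:11039711-11053930, plus strand) are neighbors, with 19608 bases between them. CLDN6 (chr3:39168506-39172631, plus strand) is on the same chromosome and ends 99 bases from CLDN9 (chr3:39172731-39181827, minus strand), a claudin outside the 9 members. CLDN1 (chr13:127714857-127730628) and CLDN14 (chr13:200121796-200201712) are both on the minus strand of chromosome 13. CLDN2 is at chrX:87352695-87355724 (plus strand), CLDN7 at chr12:52612517-52628376 (minus strand), CLDN10 at chr11:65027706-65145002 (plus strand), and CLDN12 at chr9:70499770-70510082 (plus strand). In the RefSeq annotation of this assembly 0 other genes overlap a member.

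Per transcript length, most claudin mRNA came from 3 genes. CLDN1 and CLDN3, known as sealing claudins, and CLDN4, which limits the passage of cations in many epithelia, together made up most of the summed RPKM of the 9 genes in every group. In ENT-sham livers CLDN1 took 38.8% ± 5.13 of the sum (SD, n = 12), CLDN3 24.0% ± 3.42, and CLDN4 19.6% ± 6.01. The summed level itself had a mean of 201 to 239 RPKM in the 6 groups. The shares of CLDN6, CLDN7, and CLDN10 were small in sham livers, at 0.152% to 0.43%, 0.935% to 1.35%, and 1.62% to 1.72% on average, and larger in BDL livers, at 1.55% to 2.88%, 2.06% to 5.00%, and 4.65% to 5.42%.

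**Figure D1:**
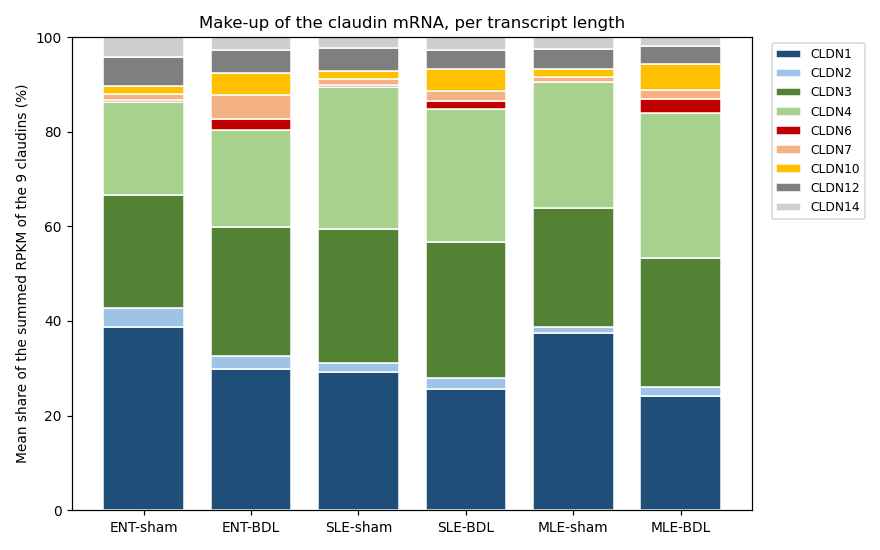
Each bar is a group and each colored segment the mean share of a claudin in the summed RPKM of the 9 members (y axis, percent). CLDN1, CLDN3, and CLDN4 fill most of every bar, and the CLDN6, CLDN7, and CLDN10 segments are wider in each BDL group than in its sham group.

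To find how the claudins differed after BDL on each diet, BDL and sham pigs were compared with the quasi-likelihood test of edgeR. A gene passed at a Benjamini-Hochberg adjusted p under 0.05 over all 16210 genes. The authors reported higher direct bilirubin after BDL on every diet. They also reported plasma bile acids that were high in both SLE groups and did not differ between them. CLDN6, CLDN7, and CLDN10 were higher after BDL on all 3 diets. In ENT pigs 4 members rose and 1 fell, where 8.89% of all genes tested rose and 8.53% fell. In SLE pigs 3 members rose and none fell, against 2.97% and 1.57% of all genes, and 4 of the 9 had an unadjusted p under 0.05. In MLE pigs 3 rose and 1 fell, against 7.85% and 6.58% of all genes. The median log2 fold change of the 9 members was 0.19 on ENT, 0.29 on SLE, and 0.04 on MLE, beside medians of all tested genes between 0.00377 and 0.0063.

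CLDN6, a claudin of embryonic epithelia that is low in most adult tissues, had the largest fold changes among the members. In ENT-sham pigs its lowest, median, and highest levels were 0.148, 0.305, and 11.5 CPM, and in ENT-BDL pigs 5.17, 9.29, and 15.1 CPM. The highest ENT-sham level belonged to replicate 2, 1 of the matching libraries, and the next highest was 0.613 CPM. All other ENT-sham pigs were below every ENT-BDL pig. The increase was 7.31-fold with all pigs (log2 2.87, SE 0.45, adjusted p = 5.98e-06 by edgeR) and reached 4.85 on the log2 scale without the matching libraries (SE 0.29, adjusted p = 1.55e-19). With the identifier number as a block and all pigs it was 3.83 (SE 0.42, adjusted p = 4.27e-09).

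On PN the same gene rose as well. CLDN6 ranged from 0.257 through a median of 0.624 to 1.04 CPM in MLE-sham pigs and from 6.39 through 9.85 to 18.1 CPM in MLE-BDL pigs. These groups did not overlap, and the increase was 17.1-fold (log2 4.10, SE 0.56, edgeR adjusted p = 9.91e-07). In SLE-sham pigs the levels were 0.649, 1.62, and 3.68 CPM and in SLE-BDL pigs 2.58, 7.49, and 9.25 CPM. Of the 11 SLE-BDL pigs, 9 were above every SLE-sham pig, and the increase was 3.64-fold (log2 1.86, SE 0.46, edgeR adjusted p = 0.0117). Sham levels rested on few reads, as little as 3 counts in an ENT-sham pig and 4 in an MLE-sham pig.

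CLDN7, which is found at tight junctions and along the lateral membrane of epithelial cells, rose most in ENT pigs. Its lowest, median, and highest levels were 2.82, 3.44, and 15.5 CPM in ENT-sham and 13.2, 18.3, and 26.3 CPM in ENT-BDL. The increase was 4.11-fold (log2 2.04, SE 0.23, edgeR adjusted p = 4.88e-09). With the matching libraries left out, the 9 ENT-BDL pigs were all above the 11 ENT-sham pigs, and the log2 fold change was 2.44 (SE 0.19).

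CLDN7 also rose on PN. Levels were 2.68, 3.68, and 11 CPM in SLE-sham and 5.98, 7.88, and 15.2 CPM in SLE-BDL, and only 1 of 11 SLE-BDL pigs was above every SLE-sham pig. The difference was 1.75-fold (log2 0.80, SE 0.24, edgeR adjusted p = 0.0341), and the call was lost in 12 of 21 fits that left out 1 pig (adjusted p up to 0.0804, and 0.0666 without SLE-sham replicate 9). It was also lost with the identifier number as a block (0.74, adjusted p = 0.0622) and with only these groups in the fit (0.81, adjusted p = 0.0704). In MLE-sham the levels were 2.50, 3.66, and 5.86 CPM and in MLE-BDL 4.57, 7.14, and 11.5 CPM. Of 8 MLE-BDL pigs, 7 were above every sham pig, and the increase was 2.01-fold (log2 1.01, SE 0.26, edgeR adjusted p = 0.00519).

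CLDN10, a pore-forming claudin with isoforms selective for cations or anions, rose by similar amounts on the 3 diets when all pigs were used. The levels were 2.14, 3.44, and 21.4 CPM in ENT-sham and 7.51, 17.3, and 19.9 CPM in ENT-BDL. In SLE-sham they were 2.50, 5.67, and 7.05 CPM and in SLE-BDL 10.1, 15.1, and 26.9 CPM. In MLE-sham they were 4.67, 5.98, and 9.24 CPM and in MLE-BDL 11.9, 15.3, and 27.3 CPM. The PN groups did not overlap with their sham groups, and in ENT pigs the sham library above every BDL pig was again replicate 2. The log2 fold changes were 1.64 on ENT (SE 0.26, edgeR adjusted p = 5.34e-06), 1.59 on SLE (SE 0.27, adjusted p = 0.000298), and 1.48 on MLE (SE 0.29, adjusted p = 0.000213). Without the matching libraries the ENT value was 2.13 (SE 0.19), and 9 of 9 ENT-BDL pigs were above every sham pig.

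**Figure D2:**
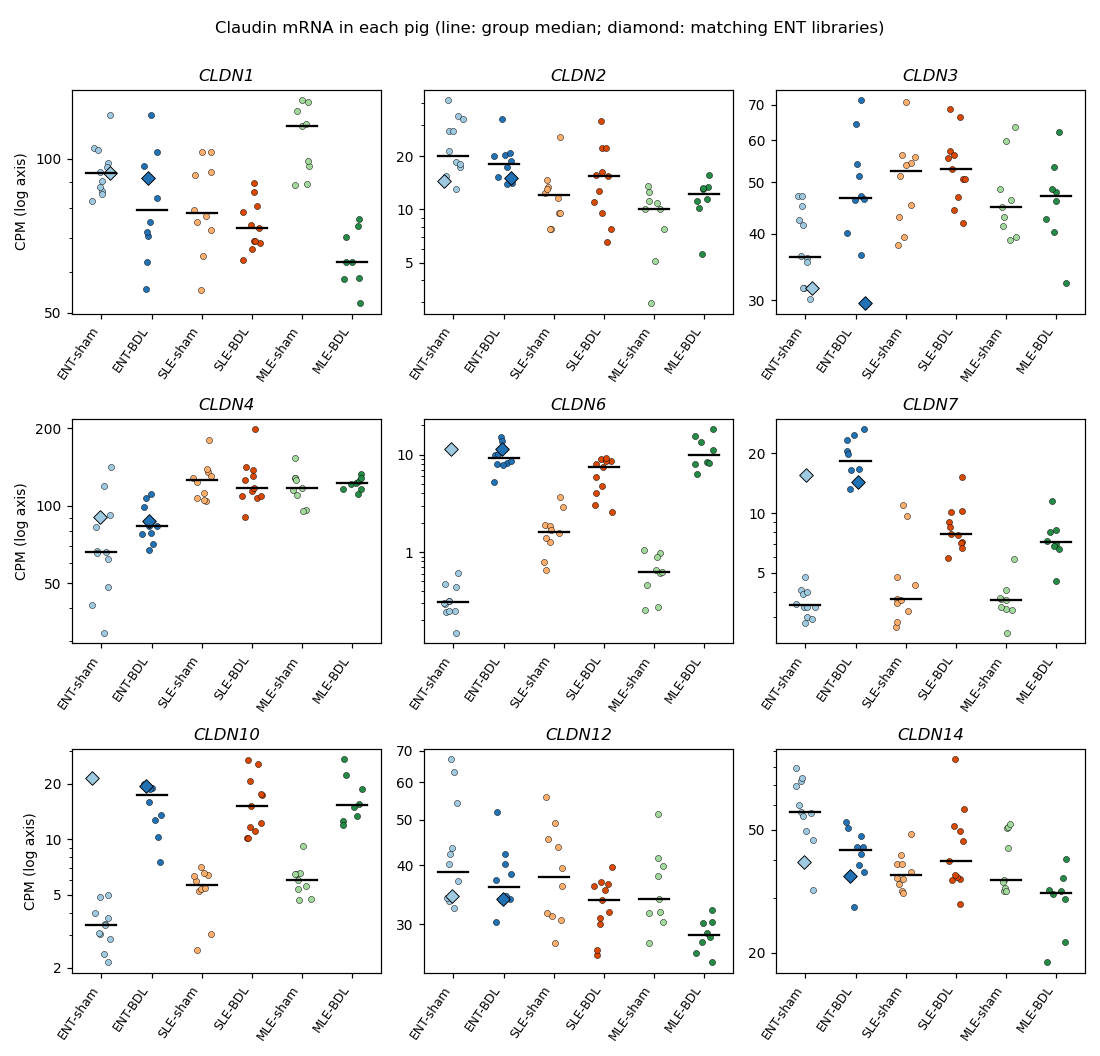
Each panel is a claudin, each point a pig, and each black line the median of a group. The y axis is CPM on a log axis, and diamonds mark the matching ENT libraries. CLDN6, CLDN7, and CLDN10 sit higher in the BDL groups, CLDN1 is lowest in MLE-BDL, and CLDN4 is lowest in the ENT groups.

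The sealing claudins moved little or in the other direction. CLDN1, the most abundant member per length in ENT-sham livers, was 89.0, 116, and 130.3 CPM in MLE-sham and 52.2, 62.8, and 76.4 CPM in MLE-BDL (lowest, median, and highest). All 8 MLE-BDL pigs were below every MLE-sham pig, and the level fell by 0.77 on the log2 scale (SE 0.11, edgeR adjusted p = 2.97e-06), which is 1.71-fold lower. In ENT pigs the mean was 95.5 ± 10.9 CPM in sham and 83.4 ± 20.2 in BDL, and in SLE pigs 81.7 ± 16 and 74.5 ± 8.37 CPM. These differences did not pass the test, with log2 fold changes of -0.20 (95% CI -0.39 to 0.00) on ENT and -0.13 (95% CI -0.33 to 0.07) on SLE. CLDN1 took 37.4% ± 5.92 of the summed claudin RPKM in MLE-sham and 24.2% ± 1.65 in MLE-BDL.

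CLDN3 rose only slightly, and CLDN4 did not pass the test on any diet. CLDN3 was 30.2, 36.3, and 47.2 CPM in ENT-sham and 29.6, 46.8, and 71.5 CPM in ENT-BDL, and 4 of the 10 ENT-BDL pigs exceeded all sham pigs. The log2 fold change was 0.36 (SE 0.12, edgeR adjusted p = 0.0232), and leaving out ENT-BDL replicate 4 (0.29, adjusted p = 0.0787) or 8 (0.30, adjusted p = 0.0636), or fitting only these groups (0.36, adjusted p = 0.0537), ended the call. On PN the CLDN3 values were 0.08 (95% CI -0.15 to 0.31) for SLE and -0.02 (95% CI -0.28 to 0.24) for MLE. For CLDN4 the log2 fold changes were 0.19 (95% CI -0.09 to 0.47), -0.01 (95% CI -0.30 to 0.27), and 0.04 (95% CI -0.28 to 0.36) on ENT, SLE, and MLE.

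CLDN14, which limits cation passage in the inner ear and kidney, fell in ENT pigs. Its levels were 31.8, 56.9, and 79.0 CPM in ENT-sham and 28.1, 42.8, and 53.1 CPM in ENT-BDL, and the groups overlapped. The level fell by 0.45 on the log2 scale (SE 0.14, edgeR adjusted p = 0.0212). In MLE pigs 4 of 8 BDL pigs were below every sham pig, but the difference of -0.42 (95% CI -0.75 to -0.10) had an adjusted p of 0.0718 by edgeR, and 0.0489 with only these groups in the fit. In SLE pigs the value was 0.29 (95% CI 0.00 to 0.58, edgeR adjusted p = 0.276).

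CLDN2 and CLDN12 did not pass the test of BDL on any diet. CLDN2, a channel for cations and water, had log2 fold changes of -0.32 (95% CI -0.76 to 0.13), 0.30 (95% CI -0.15 to 0.76), and 0.32 (95% CI -0.19 to 0.84) on ENT, SLE, and MLE. Those of CLDN12 were -0.19, -0.24, and -0.34, with an adjusted p of 0.0724 for MLE by edgeR. CLDN12 is unusual among claudins in lacking the usual binding motif for PDZ domains at its end. With the identifier number as a block, CLDN12 in MLE passed (-0.35, adjusted p = 0.00875), as it did with only these groups in the fit (-0.35, adjusted p = 0.0194).

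**Figure D3:**
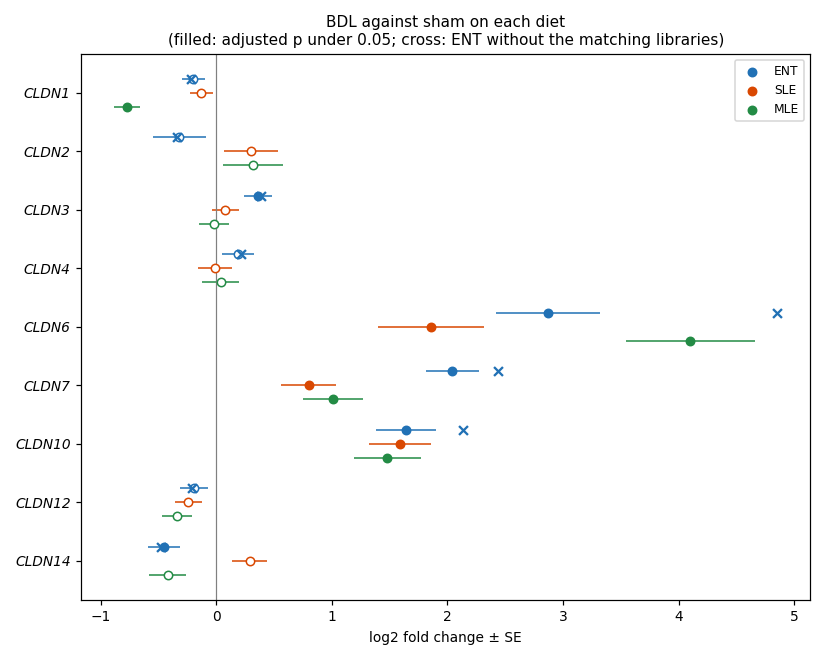
Points are log2 fold changes of BDL against sham (x axis) for each claudin (y axis), with bars of ± SE and a color for each diet. Filled points passed at an adjusted p under 0.05 and open points did not. Crosses give the ENT values without the matching libraries, where CLDN6 moved from 2.87 to 4.85, CLDN7 from 2.04 to 2.44, and CLDN10 from 1.64 to 2.13.

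Whether the response to BDL depended on diet was tested with interaction terms. CLDN7 rose less on SLE than on ENT, by 1.24 on the log2 scale (interaction -1.24, SE 0.32, edgeR adjusted p = 0.0245), and the CLDN14 responses on these diets differed by 0.75 (SE 0.21, adjusted p = 0.0355). These were the 2 members that passed between SLE and ENT, where 2.33% of all genes did. Between MLE and SLE 1 member passed, where 0.265% of all genes did. This was CLDN1, which fell more on MLE (-0.64, SE 0.15, edgeR adjusted p = 0.0438). Between MLE and ENT no member passed the test of edgeR, where 0.0617% of all genes did, and 3 of the 9 had an unadjusted p under 0.05.

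These interactions were sensitive to the pigs included. The CLDN7 value was -1.04 (adjusted p = 0.0626) without SLE-sham replicate 3, -1.07 (adjusted p = 0.0565) without replicate 10, and -1.23 (adjusted p = 0.0641) with only these groups in the fit. The CLDN14 call was lost in 13 of 43 fits that left out 1 pig (values of 0.62 to 0.80, adjusted p up to 0.0652) and the CLDN1 call in 20 of 38 (values of -0.69 to -0.59, adjusted p up to 0.0895). With the identifier number as a block, the CLDN14 value was 0.66 (adjusted p = 0.0741), the CLDN1 value between MLE and SLE -0.50 (adjusted p = 0.134), and the CLDN1 value between MLE and ENT -0.57 (adjusted p = 0.0434).

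For CLDN6 no interaction passed in the model of all 60 pigs, and some values depended on the matching libraries. The CLDN6 response on SLE differed from that on ENT by -1.01 (SE 0.63, edgeR adjusted p = 0.489) with all pigs and by -2.99 (SE 0.37, adjusted p = 3.68e-07) without the matching libraries. Between MLE and SLE the CLDN6 interaction was 2.23 in both fits, with an adjusted p of 0.184 and 0.000822, and with only those 4 groups in the fit its adjusted p was 0.0112. Between MLE and ENT it changed from 1.23 to -0.76 and did not pass in either fit. The CLDN7 interaction between MLE and ENT moved from -1.03 (adjusted p = 0.302) to -1.43 (adjusted p = 0.0128).

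The next comparisons set the diets side by side in sham pigs, in which the bile ducts were not tied. CLDN3 and CLDN4 were higher and CLDN2 and CLDN14 lower on both PN diets than on ENT. Among all genes tested, 13.9% were higher and 13.6% lower in SLE-sham than in ENT-sham, and 10.7% were higher and 10.4% lower in MLE-sham. Both comparisons use the same ENT-sham pigs.

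CLDN4 was 32.1, 66.4, and 141 CPM in ENT-sham, 104, 126, and 180.5 CPM in SLE-sham, and 95.7, 117, and 153 CPM in MLE-sham. The ENT-sham range was wide and overlapped with both PN groups. CLDN4 was 1.67-fold higher in SLE-sham (log2 0.74, SE 0.14, edgeR adjusted p = 5.54e-05) and 1.57-fold higher in MLE-sham (log2 0.65, SE 0.15, adjusted p = 0.000737). CLDN3 was higher by 0.42 in SLE-sham (SE 0.12, edgeR adjusted p = 0.00415) and by 0.32 in MLE-sham (SE 0.12, adjusted p = 0.0478). The second CLDN3 call was lost in 12 of 21 fits without 1 pig, at 0.29 without the matching libraries (adjusted p = 0.0616), and at 0.26 with the identifier number as a block (adjusted p = 0.199).

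CLDN2 was 13.0, 20.1, and 41.6 CPM in ENT-sham, 7.75, 12, and 25.6 CPM in SLE-sham, and 2.95, 10.1, and 13.5 CPM in MLE-sham. The ranges overlapped, and the ENT-sham pigs held the highest levels. CLDN2 was 1.87-fold lower in SLE-sham (log2 -0.90, SE 0.23, edgeR adjusted p = 0.00208) and 2.51-fold lower in MLE-sham (log2 -1.32, SE 0.24, adjusted p = 4.21e-05). With the identifier number as a block the MLE-sham value of CLDN2 was -0.80 (SE 0.28, adjusted p = 0.0405), which is under 2-fold. CLDN14 was lower by similar amounts on both PN diets, at -0.64 in SLE-sham (SE 0.14, edgeR adjusted p = 0.000528) and -0.52 in MLE-sham (SE 0.15, adjusted p = 0.00844).

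Sham levels of CLDN6 and CLDN10 depended on the matching libraries. With all pigs neither gene passed between sham groups in the model of the 6 groups, and with the identifier number as a block both passed in SLE-sham against ENT-sham (1.52, edgeR adjusted p = 0.0162 for CLDN6 and 0.71, adjusted p = 0.0295 for CLDN10). Without these libraries CLDN6 was higher in SLE-sham than in ENT-sham by 2.41 (SE 0.30, edgeR adjusted p = 3.55e-09). In MLE-sham it was higher by 0.96 (adjusted p = 0.029), where the value with all pigs had been -1.04 (adjusted p = 0.166). The 11 other ENT-sham pigs had 0.33 ± 0.13 CPM of CLDN6, SLE-sham pigs 1.76 ± 0.913, and MLE-sham pigs 0.642 ± 0.287. CLDN10 was higher by 0.64 in SLE-sham (adjusted p = 0.00826) and by 0.82 in MLE-sham (adjusted p = 0.00129) without the matching libraries, and by 0.11 and 0.29 with all pigs.

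Between the PN sham groups 1 member passed, where 0.37% of all genes were higher and 0.629% lower in MLE-sham than in SLE-sham. CLDN1 was higher in MLE-sham by 0.43 (SE 0.11, edgeR adjusted p = 0.0286). The call was lost in 8 of 19 fits without 1 pig (adjusted p up to 0.0848) and with the identifier number as a block (0.39, adjusted p = 0.0544). CLDN6 was also lower in MLE-sham without the matching libraries, which belong to neither group (-1.45, adjusted p = 0.00307), and with only these groups in the fit (-1.44, adjusted p = 0.0235).

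Among the 9 members, CLDN7 had the largest differences that passed between BDL groups. Its levels in ENT-BDL (13.2, 18.3, and 26.3 CPM) were mostly above those in SLE-BDL (5.98, 7.88, and 15.2 CPM) and all above those in MLE-BDL (4.57, 7.14, and 11.5 CPM). CLDN7 was 2.18-fold lower in SLE-BDL (log2 -1.12, SE 0.23, edgeR adjusted p = 0.000221) and 2.52-fold lower in MLE-BDL (log2 -1.33, SE 0.25, adjusted p = 0.000105). CLDN4 was higher than in ENT-BDL (67.1, 83.4, and 111 CPM) in SLE-BDL (90.3, 117, and 198 CPM) and in MLE-BDL (111, 123, and 133 CPM). The log2 differences of CLDN4 were 0.54 (SE 0.15, edgeR adjusted p = 0.00663) and 0.49 (SE 0.16, adjusted p = 0.023).

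In SLE-BDL against ENT-BDL these were the 2 members that passed, 1 in each direction, beside 10.4% of all genes higher and 9.17% lower. In MLE-BDL against ENT-BDL 1 member was higher and 4 were lower, beside 8.53% and 8.27% of all genes. The other 3 that were lower were CLDN1 (-0.37, SE 0.11, edgeR adjusted p = 0.0139), CLDN12 (-0.40, SE 0.13, adjusted p = 0.0251), and CLDN14 (-0.49, SE 0.16, adjusted p = 0.027). CLDN1 did not pass with the identifier number as a block (-0.26, adjusted p = 0.148). CLDN12 did not pass without ENT-BDL replicate 6 (-0.34, adjusted p = 0.0634) or MLE-BDL replicate 3 (-0.38, adjusted p = 0.051), nor CLDN14 without MLE-BDL replicate 4 (-0.43), MLE-BDL replicate 7 (-0.41), or ENT-BDL replicate 10 (-0.45), with adjusted p values of 0.0541 to 0.0789. CLDN2 missed the threshold in this comparison (log2 -0.69, SE 0.25, edgeR adjusted p = 0.0541) and passed it with DESeq2 (-0.69, adjusted p = 0.0377), without the matching libraries (-0.72, adjusted p = 0.0469), and with only these groups in the fit (-0.70, adjusted p = 0.00959).

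Between the BDL groups on PN, CLDN14 was lower in MLE-BDL than in SLE-BDL by 0.60 (log2 -0.60, SE 0.16, edgeR adjusted p = 0.0457), and no other member passed. Its levels were 18.6, 31.2, and 40.1 CPM in MLE-BDL and 28.7, 39.7, and 84.7 CPM in SLE-BDL. Among all genes 0.216% were higher and 0.691% lower. The CLDN14 call was lost in 10 of 19 fits without 1 pig (adjusted p up to 0.121) and with the identifier number as a block (-0.52, adjusted p = 0.272) or only these groups in the fit (-0.61, adjusted p = 0.156). CLDN10, in contrast to CLDN7, differed between BDL groups by 0.06 (95% CI -0.44 to 0.55) for SLE against ENT, 0.13 (95% CI -0.40 to 0.67) for MLE against ENT, and 0.08 (95% CI -0.45 to 0.60) for MLE against SLE.

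**Figure D4:**
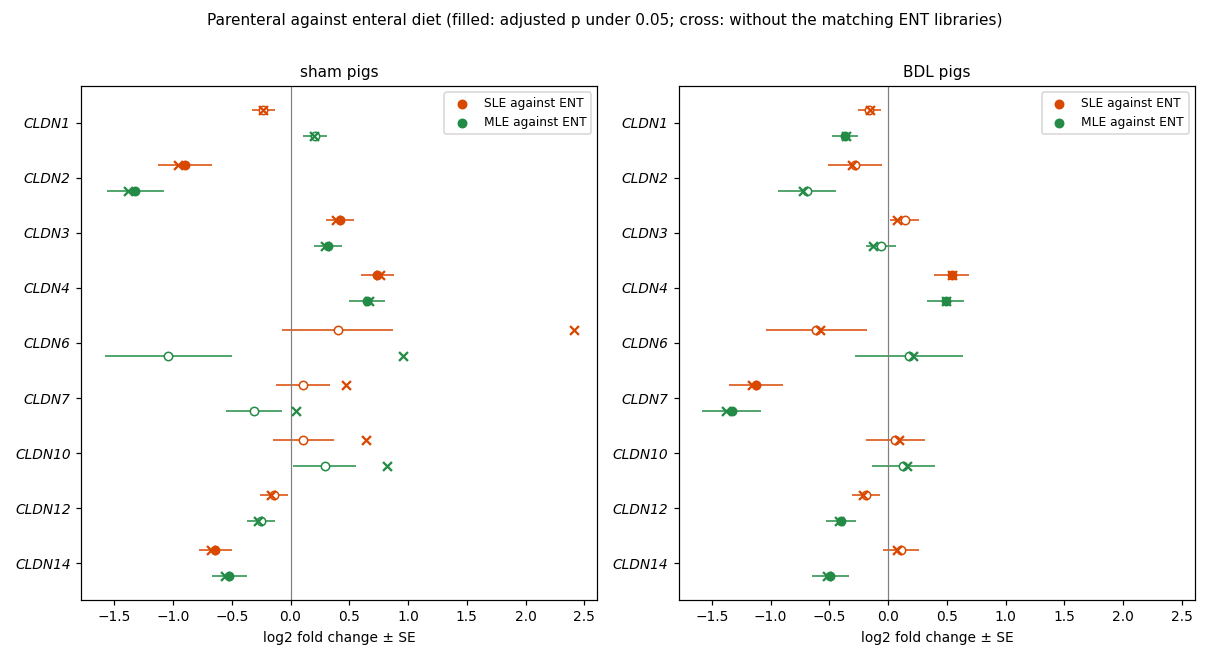
Points are log2 fold changes of SLE or MLE against ENT with ± SE in sham pigs (left) and BDL pigs (right), filled at an adjusted p under 0.05. Crosses are the values without the matching ENT libraries. CLDN4 lies to the right of 0 in both panels, CLDN7 lies far to the left in BDL pigs, and the crosses of CLDN6 in sham pigs are far from the points.

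In the order of the 6 group means, most neighbors had overlapping intervals of mean ± SD. The steps without overlap were those between SLE-BDL and SLE-sham for CLDN6, between ENT-BDL and SLE-BDL for CLDN7, and between ENT-BDL and MLE-sham for CLDN10. For CLDN6, CLDN7, and CLDN10 the means of all BDL groups were above those of all sham groups. For CLDN1 the order ran from MLE-sham (110.2 ± 16.7 CPM) down to MLE-BDL (64.4 ± 8.39 CPM), with the other 4 groups between them. For CLDN2 the ENT groups had the highest means (23.5 ± 9.05 CPM in ENT-sham), and for CLDN4 they had the lowest (75.7 ± 31.7 CPM in ENT-sham).

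Of the claudins outside the 9 members, CLDN9 passed between BDL and sham. CLDN9, the neighbor of CLDN6, rose by 1.72 on ENT (SE 0.50, edgeR adjusted p = 0.0116) and by 2.18 on MLE (SE 0.56, adjusted p = 0.00464), and on SLE its value was 1.42 (adjusted p = 0.0924). Its level was low, at 0.244 ± 0.631 CPM in ENT-sham and 0.894 ± 0.53 CPM in ENT-BDL, and 11 of 12 ENT-sham pigs had 3 counts or fewer. ENT-sham replicate 2 again held the highest sham level of CLDN9 (2.24 CPM, with the next at 0.125 CPM), and all 9 ENT-BDL pigs outside the matching pair were above the other ENT-sham pigs. Without the matching libraries the log2 fold change of CLDN9 on ENT was 3.43 (SE 0.45, edgeR adjusted p = 3.99e-08), and on SLE 1.42 passed (adjusted p = 0.00776). The library kit does not keep strand, and reads past the end of CLDN6 or CLDN9 cannot be assigned by strand. The counts of CLDN18 and CLDN25 were 0 in every library.

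Of 32 partner genes tested, such as occludin and the zonula occludens proteins, 8 rose and 3 fell on ENT (8.89% and 8.53% of all genes), 3 rose and none fell on SLE (2.97% and 1.57%), and 5 rose and 1 fell on MLE (7.85% and 6.58%). The same shares of all genes apply to the lists that follow. Without the matching libraries 11 rose and 3 fell on ENT, 4 rose on SLE, and 6 rose and 1 fell on MLE. Their median log2 fold change was 0.09 on ENT, 0.04 on SLE, and 0.06 on MLE. CXADR, a junctional adhesion protein and virus receptor, rose on ENT from 29.8 ± 5.90 to 46.9 ± 10.2 CPM (log2 0.65, edgeR adjusted p = 2.57e-06). ARHGEF2, a protein held at tight junctions, rose on MLE (log2 0.64, adjusted p = 4.68e-06), and YBX3, a transcription factor that binds ZO-1, rose on SLE (log2 0.73, adjusted p = 0.000338). On the other diets these genes did not pass. CXADR was -0.03 on SLE and 0.28 on MLE, ARHGEF2 0.22 on ENT and 0.21 on SLE, and YBX3 0.30 on ENT and 0.35 on MLE. MARVELD2, named after its values were seen, rose by 0.47 on ENT, 0.58 on SLE, and 0.82 on MLE. Those that fell, named after their values were seen, were the scaffold proteins AFDN (-0.23), MAGI3 (-0.33), and MPDZ (-0.43) on ENT and AFDN (-0.24) on MLE.

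Of 8 adherens junction genes, 4 rose and 1 fell on ENT, 1 rose on SLE, and 3 rose and 1 fell on MLE, and 2 rose on SLE without the matching libraries. By share of the list, those that rose on ENT and MLE were above the 8.89% and 7.85% of all genes. CTNNA1, the alpha-catenin that links cadherins to actin, rose on all 3 diets, by 0.45 on ENT (edgeR adjusted p = 1.36e-07), 0.24 on SLE (adjusted p = 0.00959), and 0.35 on MLE (adjusted p = 0.000114). CTNND1, the p120 catenin, rose by 0.24 on ENT (edgeR adjusted p = 0.000996) and 0.32 on MLE (adjusted p = 0.000196). NECTIN3, a nectin adhesion molecule, fell by 0.49 on ENT (edgeR adjusted p = 5.93e-05) and by 0.39 on MLE (adjusted p = 0.00479). On SLE the values of CTNND1 and NECTIN3 were 0.16 and -0.19 and did not pass.

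Of 12 transcription factors known to act on claudin genes, 2 rose and 1 fell on ENT, 2 rose on SLE, and 3 rose and 1 fell on MLE. The 1 that fell on ENT and on MLE is near the share of all genes that fell (8.53% and 6.58%). The vitamin D receptor VDR rose by 2.16 on ENT (edgeR adjusted p = 0.00164) and 3.50 on MLE (adjusted p = 9.22e-05), from levels of 0.217 ± 0.341 and 0.118 ± 0.0732 CPM. ELF3, an epithelial ETS factor, rose by 1.90 on ENT (edgeR adjusted p = 8.52e-05) and 1.80 on MLE (adjusted p = 0.00102). Its sham levels were 6.19 ± 8.62 CPM on ENT and 9.87 ± 6.23 CPM on MLE. In ENT-sham the SD of VDR and of ELF3 was above the mean, and their values without the matching libraries are not given. On SLE the values of VDR and ELF3 were 1.40 (edgeR adjusted p = 0.0923) and 0.73 (adjusted p = 0.25) and did not pass. SNAI2, a repressor of epithelial genes, rose by 0.67 on SLE (edgeR adjusted p = 0.0134), and its values of 0.29 on ENT and 0.41 on MLE did not pass. GRHL2 rose on SLE (1.03) and KLF5 rose on MLE (1.39), and both were named after their values were seen.

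Markers of cholangiocytes moved with CLDN6, CLDN7, and CLDN10. Of 14 marker genes tested, 10 rose on ENT, 3 on SLE, and 11 on MLE, beside 8.89%, 2.97%, and 7.85% of all genes, and none fell. Without the matching libraries 11 rose on ENT, 8 on SLE, and 11 on MLE, with no share of all genes to set beside them. The SLE and MLE pigs were the same in both fits. The summed level of the markers ranged from 112 to 700.1 CPM in ENT-sham (median 137) and from 345 to 700.5 CPM in ENT-BDL (median 424). It ranged from 177 to 382 CPM in SLE-sham and from 250.1 to 531 CPM in SLE-BDL, and from 137 to 223 CPM in MLE-sham and from 307 to 568 CPM in MLE-BDL. The highest sums in both ENT groups were those of the matching libraries, and the next highest ENT-sham sum was 157 CPM. ANXA4, BICC1, and SPP1 had the lowest p values on the list, and ANXA4, a calcium-dependent membrane-binding protein, rose by 1.33, 1.18, and 1.43 on the 3 diets. SPP1 (osteopontin) rose by 2.17 on ENT and 1.54 on MLE, and its SLE value was 0.05, with 112 ± 41.4 CPM already in SLE-sham. The part of these markers in the claudin results was not tested. In whole liver a change in the number of cells of a type and a change in RNA per cell cannot be told apart.

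**Figure D5:**
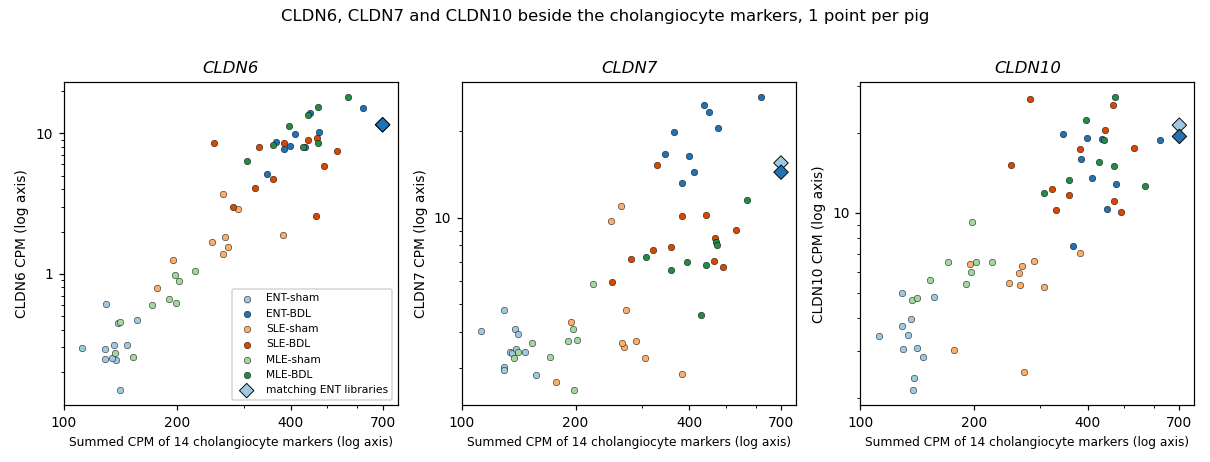
Each point is a pig, with the summed CPM of 14 cholangiocyte markers on the x axis and the CPM of CLDN6, CLDN7, or CLDN10 on the y axis (both log axes). BDL pigs lie at higher marker sums and claudin levels, ENT-BDL pigs lie mostly above the other BDL groups for CLDN7, and the diamonds of the matching libraries lie together at 700.1 and 700.5 CPM.

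Hepatocyte markers moved in the other direction, and 5 of 9 fell on ENT and 6 of 9 on MLE, beside 8.53% and 6.58% of all genes, with 1 that rose on ENT and none that passed on SLE. F2, which encodes prothrombin, fell by 0.40 on ENT and 0.71 on MLE, and ASGR1, the asialoglycoprotein receptor, by 0.50 and 0.46. TF (transferrin) rose by 0.84 on ENT, and its values of 0.34 on SLE and 0.20 on MLE did not pass. Of 6 fetal and progenitor liver genes tested, 2 rose and 1 fell on ENT, 1 fell on SLE, and 1 rose and 3 fell on MLE. LIN28B, a fetal RNA-binding protein, fell by 1.42, 1.56, and 1.53 on the 3 diets. AFP (alpha-fetoprotein) rose by 0.98 on ENT, and its values of 0.03 on SLE and 0.31 on MLE did not pass. GPC3 (glypican 3) fell by 0.50 on MLE, and its values of -0.15 on ENT and -0.12 on SLE did not pass. The others that passed, named after their values were seen, were DLK1, which rose on ENT (0.82) and MLE (0.87), and PROM1, which fell on MLE (-1.61).

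Counts for the other cell types were small. Of 7 endothelial markers 1 fell on ENT, of 6 stellate cell markers 1 fell on ENT, 2 rose on SLE, and 1 rose and 1 fell on MLE, and of 5 macrophage markers 1 rose on each diet and 1 fell on ENT and on MLE. With lists this short, 1 gene is already a larger share than the 8.53% of all genes that fell on ENT. Without the matching libraries 1 stellate cell marker also rose and 2 macrophage markers fell on ENT. The macrophage receptor MARCO rose by 1.48, 1.01, and 1.13 on ENT, SLE, and MLE. C1QA, a complement subunit made by macrophages, fell by 0.48 on ENT and 0.58 on MLE, and its SLE value was -0.31 (edgeR adjusted p = 0.276). The median over the macrophage list was -0.37, -0.10, and -0.23, opposite in sign to MARCO. Among stellate cell markers the collagen gene COL1A1 rose by 1.56 on MLE (edgeR adjusted p = 0.00265), and DES (desmin) fell by 0.83 on MLE (adjusted p = 0.000535) and 0.43 on ENT (adjusted p = 0.0419). The COL1A1 values of 0.79 on ENT and 0.85 on SLE and the DES value of 0.10 on SLE did not pass. RGS5 and ACTA2 rose on SLE, by 1.15 and 0.61, and ACTA2 was named after its values were seen. On ENT and MLE their values did not pass, at 0.59 and 0.82 for RGS5 and 0.10 and 0.50 for ACTA2. The median over the stellate list was 0.16, 0.48, and 0.38 on ENT, SLE, and MLE. Among endothelial markers LYVE1 fell by 0.45 on ENT (edgeR adjusted p = 0.0479), and its values of 0.05 on SLE and -0.29 on MLE did not pass. No lymphocyte marker and no gut or pancreas marker of 4 tested in each list passed on any diet by edgeR.

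Over the 60 pigs, the genes most like each member were found by Spearman rank correlation, as a description of pigs that share diets and surgery. Only the highest positive correlations were taken, and other claudins and genes named only by a LOC number were left out. CLDN6 ran with CDH6, a cadherin (Spearman correlation 0.93), and with ANXA4 (correlation 0.92), which is on the cholangiocyte list. CLDN7 ran with CTNNA1 (correlation 0.87) and ANKRD1 (correlation 0.82), and CLDN10 with BCAS4 (correlation 0.86) and TFPI2 (correlation 0.85). The members that moved less with BDL had lower values. The closest genes were TRIB3 and VPREB3 for CLDN4 (correlation 0.77 for both), C8H4orf32 for CLDN1 (correlation 0.75), and STXBP2 for CLDN2 (correlation 0.71). For CLDN14 the closest was TRAPPC4 (correlation 0.69), for CLDN12 MTERF1 (correlation 0.69), and for CLDN3 STX5 (correlation 0.67).

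The members that rose with BDL also ran together over the 60 pigs. The Spearman correlation was 0.81 between CLDN6 and CLDN10, 0.79 between CLDN6 and CLDN7, and 0.70 between CLDN7 and CLDN10. After the mean of each group was subtracted, these values were 0.16, 0.41, and -0.03. The neighbors CLDN3 and CLDN4 had a correlation of 0.50 over all pigs and 0.34 within groups.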

How the data were processed

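Liver RNA of 60 pigs was sequenced as paired ends from NEBNext Ultra libraries. Per the methods and processing notes, the authors trimmed reads with fastp, aligned them to Sscrofa11.1 with HISAT2 2.0.5, and counted reads per gene with featureCounts 1.5.0-p3. The strand setting is not given in the sources used here. The deposited values are raw counts without normalization. Features without a gene name (24, with 0.00842% to 0.0407% of a library's counts) were left out.

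Counts were filtered with filterByExpr, scaled by TMM, and fitted in 1 quasi-likelihood model of the 6 groups with edgeR 4.0.16 in R 4.3.3 (robust, two-sided, Benjamini-Hochberg adjustment over 16210 genes). Interactions are differences between the BDL effects of 2 diets. The study's requirement of a fold change above 2 was an alternative, as were DESeq2 1.42.0, other normalization and filters, blocks, and leaving out pigs. RPKM used the deposited gene lengths. SD and SE hold counting error and differences between pigs.

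The named genes were the 9 members, other claudins that passed between BDL and sham, the 3 genes of each list with the lowest p, and up to 2 genes most like a member by Spearman correlation. Members and lists were chosen with earlier results of these data known. The edgeR test was also run on simulated counts with known changes, and the outcome is not given here. Residuals of 82 same-numbered pairs of replicates correlated at -0.231 to 0.381 (median -0.0112), so the numbers were not taken to pair the pigs. The identifier number entered as a block in an alternative. Leaving out the matching libraries for CLDN9 and the lists was added after seeing the data.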

Additional observations from a re-analysis of the deposited data

Results flagged for a closer look

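In 4 of 36 groups of claudin levels with up to 10 pigs, a pig lay farther from the others than Dixon's 95% limit allows, and chance gives about 1 in 20 such groups. The limit was applied to levels on a log scale, and the levels below are printed as CPM. CLDN2 was highest in ENT-BDL replicate 2 at 32.5 CPM, and lowest in MLE-BDL replicate 5 at 5.61 CPM. CLDN4 was highest in SLE-sham replicate 3 at 180.5 CPM. CLDN10 was highest in MLE-sham replicate 5 at 9.24 CPM. The groups of ENT-sham and SLE-BDL pigs were too large for this limit, so the 11.5 CPM of CLDN6 in ENT-sham replicate 2 was not tested by it.

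For 3 members the response to BDL differed between diets by an interaction term in the model of all pigs. The log2 difference was -0.64 for CLDN1 (MLE against SLE), -1.24 for CLDN7 (SLE against ENT), and 0.75 for CLDN14 (SLE against ENT). Among all genes tested, 2.33% passed for SLE against ENT and 0.265% for MLE against SLE. Leaving out a pig ended the CLDN1 call in 20 of 38 fits. It ended the CLDN14 call in 13 of 43 and the CLDN7 call in 2 of 43. The identifier number as a block ended the CLDN1 and CLDN14 calls. Without the matching libraries CLDN6 passed for SLE against ENT (-2.99, edgeR adjusted p = 3.68e-07) and for MLE against SLE (2.23). CLDN7 then passed for MLE against ENT (-1.43).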

How the results depend on the processing

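Of the 32 member differences that passed, none reversed and 25 of their values under other settings missed the threshold. Depth limits CLDN6 in sham pigs, with as few as 3 counts, and CLDN8 and CLDN9, with 0 counts in some. Members that passed with a fold change above 2 numbered 3 for ENT BDL against sham (5 at any fold), 1 for SLE-BDL and 1 for MLE-BDL against ENT-BDL (2 and 5), 0 for SLE-sham and 1 for MLE-sham against ENT-sham (4 and 4), 1 for the SLE minus ENT interaction (2), and 0 for MLE-BDL against SLE-BDL, MLE-sham against SLE-sham, and the MLE minus SLE interaction (1 each). With no filter, 0 passed for MLE-BDL against SLE-BDL and for MLE minus SLE, and 1 for SLE minus ENT. The identifier block gave the same 3 values, with 0 for MLE-sham against SLE-sham and 1 for MLE minus ENT. Fitting only the groups compared gave 0 for MLE-BDL against SLE-BDL, 2 for MLE-sham against SLE-sham, 1 for SLE minus ENT, and 2 for MLE minus SLE. Without both matching libraries 2 passed for MLE-sham against SLE-sham, 1 for MLE minus ENT, and 2 for MLE minus SLE. The causes were not tested.

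Replicate numbers do not pair the pigs. The replicate block gave 0 for MLE-BDL against SLE-BDL, 1 for SLE minus ENT, and 0 for MLE minus SLE, and 6 member calls were lost by edgeR. These were CLDN3 on ENT (0.34, adjusted p = 0.0564) and MLE-sham against ENT-sham (0.31, 0.0851), CLDN14 MLE-BDL against ENT-BDL (-0.45, 0.0627), MLE-BDL against SLE-BDL (-0.55, 0.0975), and SLE minus ENT (0.77, 0.053), and CLDN1 MLE minus SLE (-0.62, 0.0704). CLDN2 MLE-BDL against ENT-BDL passed (-0.73, 0.0483).

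Leaving out 1 pig at a time, the counts were 4 to 5 for BDL against sham on ENT, 2 to 3 on SLE, and 4 to 6 on MLE. They were 0 to 1 for MLE-BDL against SLE-BDL, MLE-sham against SLE-sham, and MLE minus SLE. They were 4 to 6 for SLE-sham and 3 to 5 for MLE-sham against ENT-sham, 4 to 6 for MLE-BDL against ENT-BDL, and 1 to 3 for SLE minus ENT. For MLE minus ENT they were 0 to 1, with 1 only without ENT-sham replicate 2.

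Differences that had not passed changed sign. With the identifier block these were CLDN1 SLE minus ENT (-0.08), CLDN2 (0.21) and CLDN4 (0.13) MLE-BDL against SLE-BDL, CLDN4 MLE-sham against SLE-sham (0.04), CLDN6 MLE-sham against ENT-sham (0.08), CLDN10 MLE minus SLE (0.08), CLDN12 SLE minus ENT (0.01), and CLDN14 SLE-BDL against ENT-BDL (-0.01) and MLE minus ENT (-0.01). With the replicate block they were CLDN2 MLE minus SLE (-0.05), CLDN4 SLE BDL against sham (0.00), and CLDN10 MLE-BDL against SLE-BDL (-0.00). Without the matching libraries they were CLDN6 MLE-sham against ENT-sham (0.96) and MLE minus ENT (-0.76), and CLDN7 MLE-sham against ENT-sham (0.05).

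Leaving out 1 pig at a time also changed the sign of such differences. The ranges were -0.16 to 0.17 for CLDN2 MLE minus SLE, -0.09 to 0.04 for CLDN3 MLE BDL against sham, and -0.13 to 0.00 for CLDN3 MLE-BDL against ENT-BDL. For CLDN4 they were -0.10 to 0.05 for SLE and -0.01 to 0.08 for MLE BDL against sham, -0.09 to 0.04 for MLE-BDL against SLE-BDL, and -0.03 to 0.13 for MLE minus SLE. For CLDN6 they were -1.16 to 0.96 for MLE-sham against ENT-sham and -0.78 to 1.35 for MLE minus ENT, where ENT-sham replicate 2 decided the sign. For CLDN7 they were -0.10 to 0.47 for SLE-sham and -0.41 to 0.05 for MLE-sham against ENT-sham, and -0.00 to 0.32 for MLE minus SLE. For CLDN10 they were -0.05 to 0.10 for SLE-BDL and -0.00 to 0.19 for MLE-BDL against ENT-BDL, -0.06 to 0.17 for MLE-BDL against SLE-BDL, and -0.58 to 0.02 for SLE minus ENT. They were -0.14 to 0.01 for CLDN12 SLE minus ENT, and for CLDN14 -0.02 to 0.16 for SLE-BDL against ENT-BDL and -0.04 to 0.11 for MLE minus ENT.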

Other observations

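CLDN15, a pore-forming claudin outside the 9 members that was singled out after its values were seen, was lower on PN. Its mean was 53.6 ± 16.2 CPM in ENT-sham, 34.4 ± 8.25 in SLE-sham, and 36.0 ± 7.59 in MLE-sham. In BDL pigs it was 64.3 ± 12 CPM on ENT, 25.2 ± 9.86 on SLE, and 28.9 ± 3.31 on MLE. The log2 differences from ENT were -0.64 and -0.58 in sham pigs (edgeR adjusted p = 0.00153 and 0.00801) and -1.35 and -1.15 in BDL pigs (adjusted p = 1.19e-08 and 3.79e-06), for SLE and MLE in this order. CLDN5, a claudin of endothelial cells, was lower in SLE-sham (-0.50, edgeR adjusted p = 0.000409) and MLE-sham (-0.40, adjusted p = 0.00883) than in ENT-sham. CLDN23 went the other way and was higher in SLE-sham (0.76, edgeR adjusted p = 0.0284), with 0.54 in MLE-sham (adjusted p = 0.162). Among all genes tested, 13.9% were higher and 13.6% lower in SLE-sham than in ENT-sham, and 10.7% and 10.4% in MLE-sham. CLDN8, with 0 counts in some pigs, was lower in MLE-BDL than in ENT-BDL (-3.72, edgeR adjusted p = 0.0191), beside 8.27% of all genes. Its median was 0.355 CPM in ENT-BDL and 0.105 CPM in MLE-BDL, where 6 of 8 pigs had 3 counts or fewer. ENT-BDL replicate 4 alone held 9.2 CPM of CLDN8, with the next ENT-BDL pig at 3.06 CPM. CLDN5, CLDN23, and CLDN8 were also named after their values were seen.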
